A study of Mus musculus with 11 samples.

Results

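The complement and coagulation factors made up a list of 46 genes, of which 42 were measured in mouse liver RNA on Affymetrix arrays. A gene counted as measured where the array annotation gave a probe set with its symbol and no other. Where a gene had several such probe sets, the one with the highest mean over the 11 arrays was used. This choice arose for Fga only, the fibrinogen alpha chain. C3, Cfd and Cpb2 had no such probe set, the probe set of Klkb1 was shared with Cyp4v3, and these 4 genes were not analysed here. Of the 42 genes, 16 are complement components made mainly by hepatocytes, 16 are clotting, anticoagulant and fibrinolytic proteins made mainly by hepatocytes, 8 are made mainly by macrophages or other myeloid cells, and 2 come mainly from other cells (C7 and Vwf). The array carried 35556 probe sets in all.

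The livers came from male C57/BL6 mice aged 8 to 9 weeks on a chow diet. The 3 wild-type samples are called WT. The 3 Nemo KO samples carried NemoΔhepa, a deletion of the loxP-flanked Nemo gene in hepatocytes. Nemo, also called IKKγ, is the regulatory subunit of the kinase complex that activates NF-kB. The 2 Nemo/TRAIL dKO samples carried NemoΔhepa with a constitutive TRAIL-/- deletion, and the 3 Nemo/TNFR1 dKO samples carried NemoΔhepa with a constitutive TNFR1-/- deletion. TRAIL is a death ligand, and TNFR1 is the main death receptor for tumour necrosis factor. All 3 knockout groups thus lacked Nemo in hepatocytes, TRAIL or TNFR1 was absent from every cell type in the double knockouts, and mice lacking only TRAIL or TNFR1 were not among the groups. The sources used here name no line that drives Cre and do not say whether WT mice carried the loxP alleles. The labels do not say that the samples of a group were separate animals, so the p-values speak only of the spread between these samples, which may be technical. The small number of arrays, and for Nemo/TRAIL dKO only 2, limits the precision.

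Complement is a cascade of plasma proteases and pore-forming proteins. C1q bound to antibody or dying cells starts the classical pathway, mannose-binding lectins with MASP proteases start the lectin pathway, and factor B drives the alternative pathway. C5 to C9 assemble the membrane attack complex. Coagulation is a second protease cascade that ends in thrombin and fibrin, held back by protein C and its cofactor protein S and undone by plasmin. Hepatocytes secrete most of both systems into plasma, while C1q, properdin and the anaphylatoxin receptors belong largely to macrophages and other myeloid cells.

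Markers of other cell types moved with genotype. The mean log2 level of 20 macrophage and Kupffer cell markers lay between 7.65 and 7.75 on the WT arrays, 8.38 and 8.66 in Nemo KO, 8.41 and 8.54 for Nemo/TRAIL dKO, and 8.40 and 8.57 in Nemo/TNFR1 dKO. Of these 20 markers, 15 rose (75%) and 1 fell (5%) against WT in Nemo KO, where 6.08% and 3.21% of all probe sets did. The marker that fell was Cd163, with a log2 difference of -1.35 (limma adjusted p = 0.00278). With TRAIL also absent, 13 rose and 2 fell, Cd163 (-1.06) and Timd4 (-0.53). With TNFR1 also absent, 14 rose and 0 fell. The rise was thus not shared by all 20 markers. The mean of 13 stellate cell and fibroblast markers lay between 8.08 and 8.68 in WT and between 9.18 and 9.71 in the 3 Nemo-deficient groups. The mean of 11 hepatocyte markers lay between 13.24 and 13.31 on all 11 arrays. Against WT, 0 of the 11 passed in any of the 3 Nemo-deficient groups, with 2, 1 and 1 of them at an unadjusted p under 0.05. As 6.08% of all probe sets rose and 3.21% fell in Nemo KO, 0 of 11 is close to the background. Whether differences at so high a level are damped was not tested. WT replicate 3 stood apart in pancreatic acinar markers, with a mean of 11.03 where the other 10 arrays lay between 5.37 and 5.77. The probe set of Ikbkg, the gene for Nemo, was between 8.60 and 8.73 in WT, 8.34 and 8.56 in Nemo KO, 8.22 and 8.28 for Nemo/TRAIL dKO, and 8.12 and 8.31 in Nemo/TNFR1 dKO. Tnfrsf1a, the gene for TNFR1, was between 9.93 and 10.09 in WT and 9.95 and 10.19 in Nemo/TNFR1 dKO, and Tnfsf10, the gene for TRAIL, was between 6.51 and 6.996 in WT and 6.11 and 6.23 in Nemo/TRAIL dKO. Whether these probe sets lie in the deleted parts is not given, so they do not check the labels. In whole liver, fewer cells of a type and less RNA per cell cannot be told apart.

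The promoters of 7 genes are shown because they stand for the patterns described further on: C1qb, C1qc and C3ar1 are myeloid genes that rose, F7 and F11 are hepatocyte clotting genes that fell, Pros1 is a hepatocyte-made anticoagulant that rose, and Fgb is a fibrinogen gene that did not pass. RefSeq promoters on build GRCm38.p6 were matched for 32 of the 42 genes. Each sequence is the 250 bases before the annotated start, 5′ to 3′ on the gene's strand, and capitals mark matches on either strand to 6 short motifs.
C1qb (chr4:136886201-136886450, minus strand): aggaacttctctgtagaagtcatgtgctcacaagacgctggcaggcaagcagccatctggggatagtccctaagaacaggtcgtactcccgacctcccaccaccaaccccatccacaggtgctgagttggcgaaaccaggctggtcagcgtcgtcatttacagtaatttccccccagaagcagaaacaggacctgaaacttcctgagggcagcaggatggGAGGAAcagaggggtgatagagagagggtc
C1qc (chr4:136892915-136893164, minus strand): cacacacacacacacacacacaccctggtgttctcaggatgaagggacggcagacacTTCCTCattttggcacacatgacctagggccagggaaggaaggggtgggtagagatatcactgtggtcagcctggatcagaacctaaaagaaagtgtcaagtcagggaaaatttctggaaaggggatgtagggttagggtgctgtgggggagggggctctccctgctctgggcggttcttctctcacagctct
C3ar1 (chr6:122856158-122856407, minus strand): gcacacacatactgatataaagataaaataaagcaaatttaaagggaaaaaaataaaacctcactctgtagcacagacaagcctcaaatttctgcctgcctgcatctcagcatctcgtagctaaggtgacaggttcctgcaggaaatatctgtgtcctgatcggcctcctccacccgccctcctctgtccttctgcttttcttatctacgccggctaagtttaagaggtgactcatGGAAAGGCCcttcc
F7 (chr8:13025784-13026033, plus strand): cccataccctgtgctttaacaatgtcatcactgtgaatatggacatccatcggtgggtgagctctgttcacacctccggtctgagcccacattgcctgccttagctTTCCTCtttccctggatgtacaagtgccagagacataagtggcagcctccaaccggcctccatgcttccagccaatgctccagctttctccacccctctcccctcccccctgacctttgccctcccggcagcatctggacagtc
F11 (chr8:45262032-45262281, minus strand): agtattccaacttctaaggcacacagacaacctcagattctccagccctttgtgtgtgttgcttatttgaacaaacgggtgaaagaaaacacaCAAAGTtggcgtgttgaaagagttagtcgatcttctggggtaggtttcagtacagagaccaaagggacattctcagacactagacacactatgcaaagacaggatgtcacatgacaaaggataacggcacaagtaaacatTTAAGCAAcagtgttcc
Pros1 (chr16:62854057-62854306, plus strand): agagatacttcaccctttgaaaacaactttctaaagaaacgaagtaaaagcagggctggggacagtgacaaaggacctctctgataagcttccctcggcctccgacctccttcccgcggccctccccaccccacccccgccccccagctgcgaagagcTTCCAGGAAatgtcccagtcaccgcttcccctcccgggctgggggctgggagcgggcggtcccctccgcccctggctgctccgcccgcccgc
Fgb (chr3:83049864-83050113, minus strand): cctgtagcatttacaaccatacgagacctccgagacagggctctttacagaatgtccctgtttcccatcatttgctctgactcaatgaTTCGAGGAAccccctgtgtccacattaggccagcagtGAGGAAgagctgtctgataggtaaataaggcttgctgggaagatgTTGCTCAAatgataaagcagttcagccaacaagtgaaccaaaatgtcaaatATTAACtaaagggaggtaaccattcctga

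The motif GAGGAA, the core bound by PU.1, a regulator of macrophage genes, began 30 bases before the C1qb start and 193 bases before the C1qc start. It was present in 4 of the 8 promoters matched to macrophage and myeloid genes, among which F13a1 had more than 1. The 4 were promoters of C1qb, C1qc, Fcna and F13a1, of which Fcna and F13a1 did not pass. The promoters of C3ar1 and C5ar1, which rose, lacked the motif. The hepatocyte-made complement genes held the motif in 0 of 13 promoters and the hepatocyte-made coagulation genes in 2 of 13. All 32851 promoters of that length held it in 23.3% of cases, so it is a common string. The NF-kB motif GGNNTTTCC began 14 bases before the C3ar1 start, and 4.93% of all promoters held it. It also began 128 bases before a start of F13a1, a myeloid gene that did not pass. C5ar1, a myeloid gene that rose and whose promoter is not shown, held no match to any of the 6 motifs. The STAT motif TTCNNNGAA began 92 bases before the Pros1 start and 162 bases before the Fgb start, where it overlapped a GAGGAA match, and 7.02% of all promoters held it. The 3 motifs of liver regulators were the HNF4 half-site CAAAGT (12.6% of all promoters), the HNF1 half-site GTTAAT (6.43%) and the C/EBP motif TTGCNNAA (9.56%). F11 held the HNF4 half-site and the C/EBP motif, and Fgb held the HNF1 half-site and the C/EBP motif. F7, which fell, held GAGGAA and none of those 3. A match is a run of letters and does not show that a factor binds there. The lack of a match to these short strings does not show that a site is absent.

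Against WT, the genes that passed mostly differed in direction by the cells that make them. Many did not pass: in Nemo KO, 13 of 16 hepatocyte-made complement, 10 of 16 hepatocyte-made coagulation and 3 of 8 myeloid genes. All 3 chains of C1q and both anaphylatoxin receptors rose 1.89-fold to 3.01-fold in each Nemo-deficient group, while the hepatocyte-made genes that passed mostly fell, by at most 0.87 on the log2 scale. A gene passed, and is said to rise or fall, where limma's test over all probe sets gave an adjusted p under 0.05. In Nemo KO, 7 of the 42 rose (16.7%) and 8 fell (19.0%), where 6.08% of all probe sets rose and 3.21% fell. In Nemo/TRAIL dKO, 6 rose and 6 fell (14.3% each), where 4.91% of all probe sets rose and 2.64% fell. In Nemo/TNFR1 dKO, 6 rose and 6 fell (14.3% each), where 5.83% of all probe sets rose and 3.35% fell. The median difference over the 42 genes was -0.02 in Nemo KO, then -0.11 with TRAIL and -0.14 with TNFR1 also absent, against -0.05, -0.05 and -0.04 over all probe sets. Wherever 3 values stand together, they follow this order of the groups. The 3 comparisons share their WT arrays, so the likeness between them is not independent evidence. Without WT replicate 3, the array with pancreatic markers, 13, 10 and 10 genes passed in place of 15, 12 and 12. The calls lost without it were Mbl1 and F2 in Nemo KO, Mbl1 and F11 in Nemo/TRAIL dKO, and C8g and Cfp in Nemo/TNFR1 dKO. Without Nemo/TRAIL dKO replicate 1, 5 genes passed in that group in place of 12. How the share of all probe sets changed on leaving out these arrays was not compared.

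**Figure D1:**
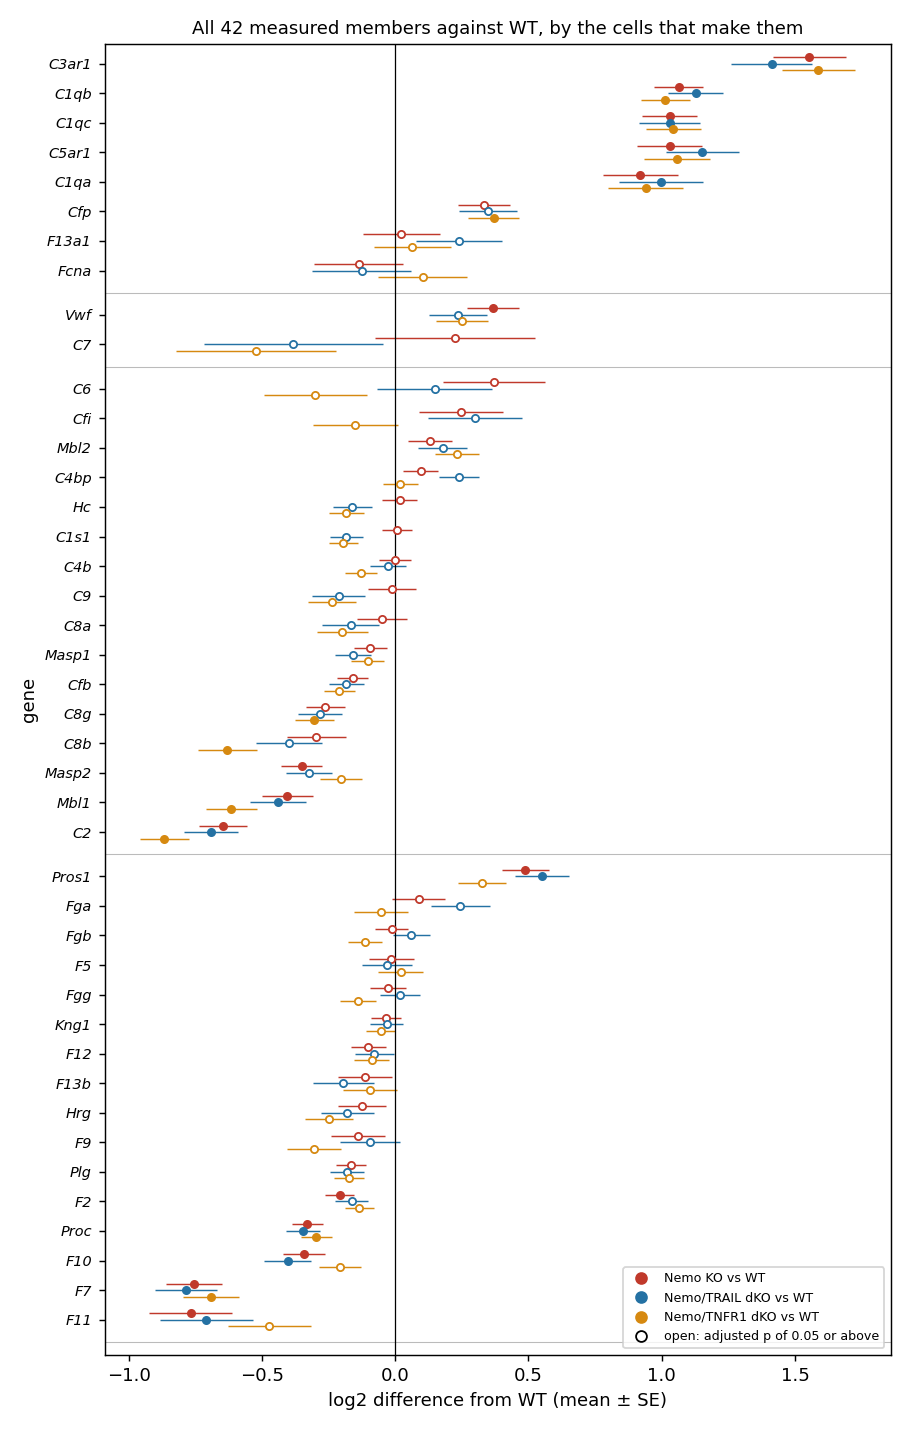
The x axis is the log2 difference from WT for each of the 42 measured genes (y axis), with points for the mean and bars for the SE of the limma fit, filled where the adjusted p was under 0.05. From top to bottom the blocks are macrophage and myeloid genes, genes of other cells, hepatocyte-made complement and hepatocyte-made coagulation; the C1q chains, C3ar1 and C5ar1 lie at the right in all 3 groups, and C2 and F7 lie farthest left in Nemo/TNFR1 dKO, F11 and F7 in the other groups.

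C1q was about doubled at the RNA level in every Nemo-deficient group. C1q is built from 3 chains encoded by C1qa, C1qb and C1qc, which lie side by side in the genome and are made by macrophages and dendritic cells. The log2 level of C1qb was 10.31, 10.26 and 10.40 on the WT arrays, 11.21, 11.40 and 11.55 in Nemo KO, 11.52 and 11.38 for Nemo/TRAIL dKO, and 11.28, 11.33 and 11.40 in Nemo/TNFR1 dKO. Every Nemo-deficient array lay above every WT array, and the 3 Nemo-deficient groups overlapped one another. C1qb rose by 1.06 ± 0.09 in Nemo KO (2.09-fold, SE, n = 3 against 3, limma adjusted p = 0.000426), by 1.13 ± 0.10 in Nemo/TRAIL dKO (adjusted p = 0.00069) and by 1.01 ± 0.09 in Nemo/TNFR1 dKO (adjusted p = 0.000482).

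The other C1q chains moved by like amounts. C1qc was at 9.62, 9.49 and 9.60 in WT, 10.44, 10.53 and 10.83 in Nemo KO, 10.59 and 10.60 for Nemo/TRAIL dKO, and 10.57, 10.53 and 10.74 in Nemo/TNFR1 dKO. C1qa was at 7.90, 7.88 and 8.23 in WT, 8.80, 8.87 and 9.10 in Nemo KO, 9.15 and 8.86 for Nemo/TRAIL dKO, and 8.74, 8.95 and 9.13 in Nemo/TNFR1 dKO. For both chains the WT arrays lay below all others, with WT replicate 3 the highest WT array for C1qa. C1qc rose by 1.03 ± 0.10, 1.03 ± 0.12 and 1.04 ± 0.10 in the 3 groups in that order (limma adjusted p = 0.000667, 0.00136 and 0.000615). C1qa rose by 0.92 ± 0.14, 0.999 ± 0.16 and 0.94 ± 0.14 (limma adjusted p = 0.00371, 0.00557 and 0.00335). Without Nemo/TRAIL dKO replicate 1 the C1qa call in that group was lost, at an adjusted p of 0.064.

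C3ar1 moved most of the 42 genes. It encodes the receptor for C3a, the small fragment released when C3 is cleaved, and is carried by macrophages and other myeloid cells. Its log2 level was 7.40, 7.49 and 7.66 in WT, 8.90, 9.11 and 9.19 in Nemo KO, 8.96 and 8.90 for Nemo/TRAIL dKO, and 8.79, 9.23 and 9.29 in Nemo/TNFR1 dKO. The lowest Nemo-deficient array, Nemo/TNFR1 dKO replicate 1, still lay well above the highest WT array. C3ar1 rose 2.94-fold in Nemo KO (1.55 ± 0.14, adjusted p = 0.000426), 2.66-fold in Nemo/TRAIL dKO (1.41 ± 0.15, adjusted p = 0.00122) and 3.01-fold in Nemo/TNFR1 dKO (1.59 ± 0.14, adjusted p = 0.0004) by limma.

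C5ar1, the receptor for the neutrophil and macrophage attractant C5a, was at 5.52, 5.67 and 5.62 in WT, 6.43, 6.57 and 6.89 in Nemo KO, 6.83 and 6.68 for Nemo/TRAIL dKO, and 6.57, 6.57 and 6.84 in Nemo/TNFR1 dKO. WT was again below every other array, and the Nemo-deficient groups overlapped. C5ar1 rose by 1.03 ± 0.12, 1.15 ± 0.14 and 1.06 ± 0.12 in the 3 groups (limma adjusted p = 0.00117, 0.00166 and 0.00115). Hc, which encodes C5, the precursor of C5a, and is made by hepatocytes, did not pass, with differences of 0.02, -0.16 and -0.18.

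The other 3 myeloid genes moved less. Cfp encodes properdin, which stabilises the alternative pathway convertase. It differed from WT by 0.33 ± 0.10 in Nemo KO (adjusted p = 0.063) and 0.35 ± 0.11 in Nemo/TRAIL dKO (adjusted p = 0.0919), and rose by 0.37 ± 0.10 in Nemo/TNFR1 dKO (limma adjusted p = 0.0439). That call was lost with arrays centred on their medians and on leaving out any WT array, any double knockout array, or Nemo KO replicate 2. Fcna, a ficolin of Kupffer cells that starts the lectin pathway, differed by -0.14 ± 0.17, -0.13 ± 0.19 and 0.10 ± 0.17. F13a1, the A subunit of the clot-linking factor XIII, differed by 0.02 ± 0.14, 0.24 ± 0.16 and 0.06 ± 0.14, and both genes' Nemo-deficient arrays overlapped WT. F13a1 had a mean of only 5.13 over the 11 arrays, at the 30.4th percentile of signal, where a change may go unseen. Over the 8 myeloid genes the median difference was 0.97, 1.01 and 0.98. Over the 20 macrophage and Kupffer markers it was 0.92, 0.93 and 0.93, and the part of these markers in the rise of the 8 genes was not tested.

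**Figure D2:**
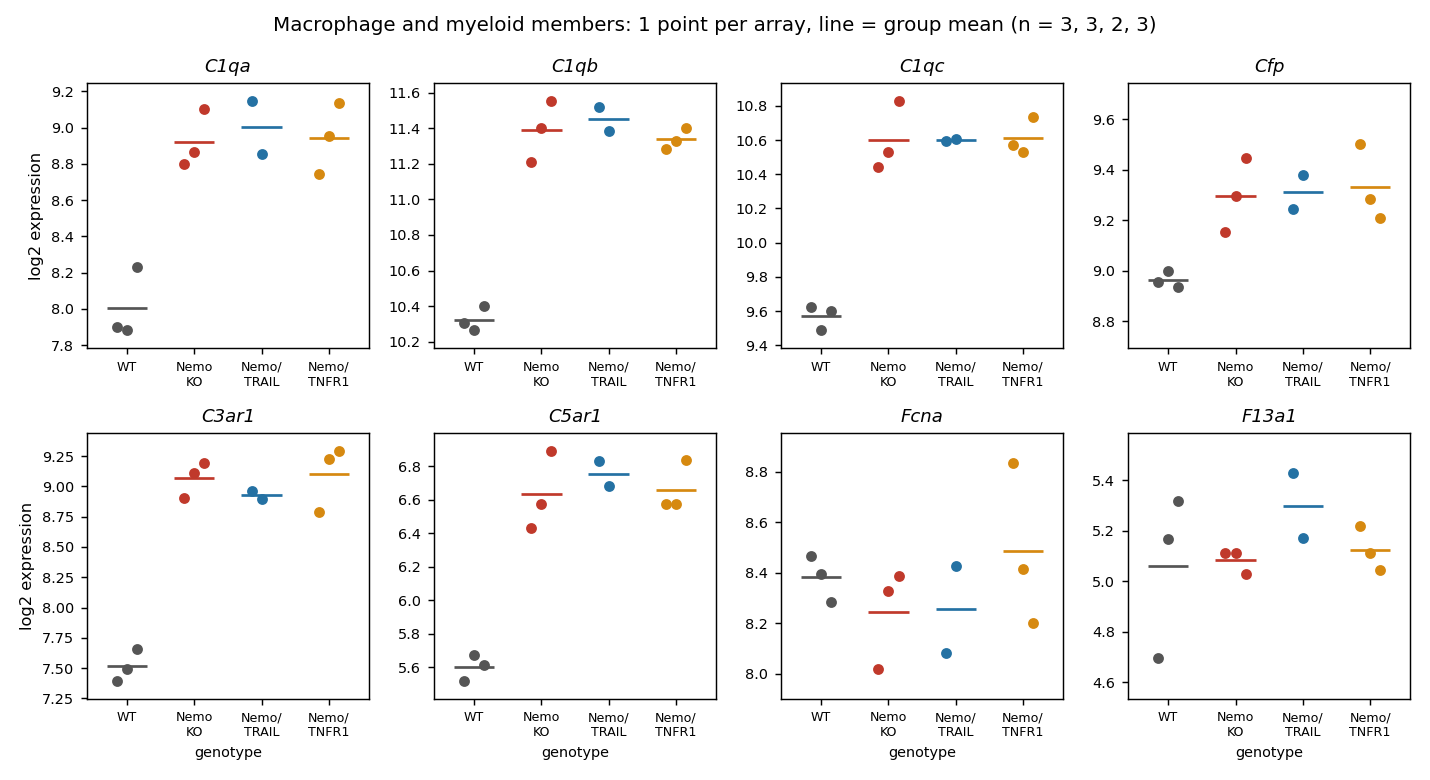
Each point is the log2 level (y axis, scaled separately per panel and not from 0) of a macrophage or myeloid gene on 1 array, by genotype (x axis), with a line at the group mean (3 arrays per group, 2 for Nemo/TRAIL dKO). For C1qa, C1qb, C1qc, Cfp, C3ar1 and C5ar1 every WT array lies below every other array, while for Fcna and F13a1 the groups overlap.

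Among the hepatocyte-made complement genes, 0 of 16 rose and 3, 2 and 4 of 16 fell in the 3 Nemo-deficient groups. The shares that fell were 18.8%, 12.5% and 25%, against 3.21%, 2.64% and 3.35% of all probe sets. As 6.08%, 4.91% and 5.83% of all probe sets rose, 0 of 16 is close to the background. The genes that fell differed in part between groups. In Nemo KO the genes were C2, Masp2 and Mbl1, in Nemo/TRAIL dKO C2 and Mbl1, and in Nemo/TNFR1 dKO C2, Mbl1, C8b and C8g. They are the convertase protease C2, the lectin pathway genes Masp2 and Mbl1, and subunits of C8. The median difference over the 16 was -0.03, -0.18 and -0.20.

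C2, which supplies the protease of the classical and lectin C3 convertase, fell in every group. Its log2 level was 9.80, 9.54 and 9.80 in WT, 9.15, 9.08 and 8.97 in Nemo KO, 8.97 and 9.08 for Nemo/TRAIL dKO, and 8.83, 8.93 and 8.78 in Nemo/TNFR1 dKO. All Nemo-deficient arrays lay below all WT arrays, and the 3 Nemo/TNFR1 dKO arrays lay below the 3 of Nemo KO. C2 fell by 0.65 on the log2 scale in Nemo KO (SE 0.09, 1.56-fold lower, limma adjusted p = 0.0025), by 0.69 in Nemo/TRAIL dKO (adjusted p = 0.00411, SE 0.10) and by 0.87 in Nemo/TNFR1 dKO (SE 0.09, adjusted p = 0.000788). C4b, its partner in the same convertase, did not pass, with differences of 0.00, -0.03 and -0.13; near-identical C4 gene copies may share its probes.

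Mbl1, a mannose-binding lectin that recognises microbial sugars, was at 10.58, 10.62 and 10.73 in WT, 10.44, 10.07 and 10.21 in Nemo KO, 10.21 and 10.19 for Nemo/TRAIL dKO, and 9.94, 10.05 and 10.10 in Nemo/TNFR1 dKO. WT lay above all other arrays, with Nemo KO replicate 1 the nearest to it. Mbl1 fell by 0.40, 0.44 and 0.61 on the log2 scale (SE 0.10, 0.11 and 0.10, limma adjusted p = 0.0281, 0.0361 and 0.00402). The Nemo KO call was lost without WT replicate 2 or 3 or Nemo KO replicate 2 or 3, and the Nemo/TRAIL dKO call without any WT or Nemo/TRAIL dKO array, Nemo KO replicate 3 or Nemo/TNFR1 dKO replicate 2. Mbl2, the second mannose-binding lectin, did not pass, and its differences of 0.13, 0.18 and 0.23 had the opposite sign.

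Masp2, the lectin-pathway protease that cleaves C4 and C2, fell by 0.35 in Nemo KO (SE 0.08, limma adjusted p = 0.0205). It differed by -0.32 ± 0.09 in Nemo/TRAIL dKO (adjusted p = 0.0536) and -0.20 ± 0.08 in Nemo/TNFR1 dKO (adjusted p = 0.149). Its Nemo KO call was lost without WT replicate 1 or 2 or Nemo KO replicate 2 or 3. Masp1, which activates Masp2, did not pass in any group, with differences of -0.09, -0.16 and -0.10.

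In the membrane attack complex, the C8 beta chain fell in Nemo/TNFR1 dKO. C8b was at 12.68, 12.52 and 12.70 in WT, 12.40, 12.31 and 12.30 in Nemo KO, 12.38 and 12.09 for Nemo/TRAIL dKO, and 11.79, 12.13 and 12.09 in Nemo/TNFR1 dKO. Every Nemo-deficient array lay below WT, with Nemo/TNFR1 dKO replicate 1 the lowest. C8b fell by 0.63 in Nemo/TNFR1 dKO (SE 0.11, 1.55-fold lower, limma adjusted p = 0.00699), and its differences in Nemo KO and Nemo/TRAIL dKO were -0.30 ± 0.11 (adjusted p = 0.133) and -0.40 ± 0.12 (adjusted p = 0.0896). C8g, the gamma chain, fell by 0.30 in Nemo/TNFR1 dKO (adjusted p = 0.0339, SE 0.07) and differed by -0.26 and -0.28 in the other 2 groups. The C8g call was lost without any WT array, Nemo KO replicate 2 or 3, or Nemo/TNFR1 dKO replicate 2 or 3. C8a, C9, C6 and Hc, which encode the rest of the measured hepatocyte-made pore, did not pass in any group.

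The remaining hepatocyte-made complement genes did not pass against WT. They are Cfb, the alternative pathway protease (differences of -0.16, -0.18 and -0.21), C1s1, a protease of the C1 complex (0.01, -0.18 and -0.20), the inhibitor Cfi (0.25, 0.30 and -0.15) and the inhibitor C4bp (0.10, 0.24 and 0.02). C1s1 has a near-identical copy, C1s2, so its value is uncertain. For Cfb and C8g every Nemo-deficient array lay below every WT array in all 3 groups. The same held for C2, C8b, Masp2 and Mbl1, so it is not particular to those genes. How many of all probe sets did so was not counted.

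Among the hepatocyte-made coagulation genes, 1 of 16 rose and 5 fell in Nemo KO, 1 rose and 4 fell in Nemo/TRAIL dKO, and 0 rose and 2 fell in Nemo/TNFR1 dKO. The shares that fell were 31.2%, 25% and 12.5%, against 3.21%, 2.64% and 3.35% of all probe sets. The shares that rose were 6.25%, 6.25% and 0%, close to the background of 6.08%, 4.91% and 5.83%. The genes that fell were F2, F7, F10, F11 and Proc in Nemo KO, F7, F10, F11 and Proc in Nemo/TRAIL dKO, and F7 and Proc in Nemo/TNFR1 dKO. Pros1 rose in the first 2 of these groups. The median difference over the 16 genes was -0.12, -0.13 and -0.14.

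F7 encodes factor VII, which with tissue factor starts clotting. Its log2 level was 10.40, 10.42 and 10.20 in WT, 9.65, 9.61 and 9.49 in Nemo KO, 9.50 and 9.61 for Nemo/TRAIL dKO, and 9.87, 9.57 and 9.51 in Nemo/TNFR1 dKO. All Nemo-deficient arrays lay below WT, and the 3 Nemo-deficient groups overlapped. F7 fell by 0.76, 0.78 and 0.69 on the log2 scale (SE 0.11, 0.12 and 0.11, 1.69-fold, 1.72-fold and 1.62-fold lower, limma adjusted p = 0.00245, 0.00461 and 0.00367). Without Nemo/TRAIL dKO replicate 1, the call in that group was lost at an adjusted p of 0.052.

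F11, factor XI of the contact-activated pathway, was at 10.77, 10.18 and 10.42 in WT, 9.59, 9.75 and 9.72 in Nemo KO, 9.50 and 9.99 for Nemo/TRAIL dKO, and 9.95, 9.99 and 10.004 in Nemo/TNFR1 dKO. The WT arrays spread widely but lay above all others, and the Nemo/TNFR1 dKO arrays lay above those of Nemo KO. F11 fell by 0.77 in Nemo KO (SE 0.16, limma adjusted p = 0.0144) and by 0.71 in Nemo/TRAIL dKO (adjusted p = 0.0382, SE 0.17), and differed by -0.47 ± 0.16 in Nemo/TNFR1 dKO (adjusted p = 0.0992). The Nemo KO call was lost without Nemo KO replicate 1, at an adjusted p of 0.051. The Nemo/TRAIL dKO call remained only when WT replicate 2 or Nemo/TRAIL dKO replicate 2 was the array left out.

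The other falls in this group were smaller. Proc, the precursor of the anticoagulant protease activated protein C, fell by 0.33, 0.35 and 0.30 (SE 0.06 in each, limma adjusted p = 0.00699, 0.0112 and 0.0117). Its Nemo/TRAIL dKO call was lost without either array of that group. F10, factor X, where the starting pathways meet, fell by 0.34 in Nemo KO (SE 0.08, adjusted p = 0.0257) and by 0.40 in Nemo/TRAIL dKO (adjusted p = 0.0233, SE 0.09), and differed by -0.21 ± 0.08 in Nemo/TNFR1 dKO. F2, prothrombin, fell by 0.21 in Nemo KO (SE 0.06, adjusted p = 0.0446), a call kept on leaving out only Nemo/TNFR1 dKO replicate 1 among the 11 arrays. The F10 call in Nemo KO was lost without WT replicate 1 or 2 or any Nemo KO array, and in Nemo/TRAIL dKO without WT replicate 1 or 2 or either array of that group.

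Pros1 was the hepatocyte-made gene of the list that rose. It encodes protein S, the cofactor of activated protein C and a ligand of the TAM receptors through which macrophages engulf dying cells; endothelial cells and macrophages also make it. Its log2 level was 9.05, 8.98 and 8.84 in WT, 9.39, 9.40 and 9.54 in Nemo KO, 9.50 and 9.51 for Nemo/TRAIL dKO, and 9.29, 9.42 and 9.13 in Nemo/TNFR1 dKO. Every Nemo-deficient array lay above WT, with Nemo/TNFR1 dKO replicate 3 the nearest to it. Pros1 rose by 0.49 ± 0.09 in Nemo KO (1.40-fold, limma adjusted p = 0.00899) and by 0.55 ± 0.10 in Nemo/TRAIL dKO (1.47-fold, adjusted p = 0.0104), and differed by 0.32 ± 0.09 in Nemo/TNFR1 dKO (adjusted p = 0.0532). The Nemo/TRAIL dKO call was lost without either array of that group.

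Fibrinogen did not pass. Fgb, the beta chain, was at 13.18, 13.16 and 13.19 in WT, 13.19, 13.16 and 13.14 in Nemo KO, 13.32 and 13.15 for Nemo/TRAIL dKO, and 13.04, 13.02 and 13.13 in Nemo/TNFR1 dKO. The groups lay close together, with Nemo/TNFR1 dKO just below WT. Fgb and Fgg stood at the 99.7th percentile of mean signal, and whether differences so near the top are damped was not tested. The differences of Fgb were -0.01, 0.06 and -0.11, with 95% confidence intervals that lay between -0.25 and 0.22. Those of Fgg, the gamma chain, were -0.03, 0.02 and -0.14. Those of Fga were 0.09, 0.24 and -0.05, but its second, dimmer probe set rose by 0.54 in Nemo/TRAIL dKO (limma adjusted p = 0.0414), so the 2 probe sets of Fga disagree on that call. The cofactor F5, the contact factors F12 and Kng1, plasminogen (Plg), F9, F13b and Hrg also did not pass in any group.

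**Figure D3:**
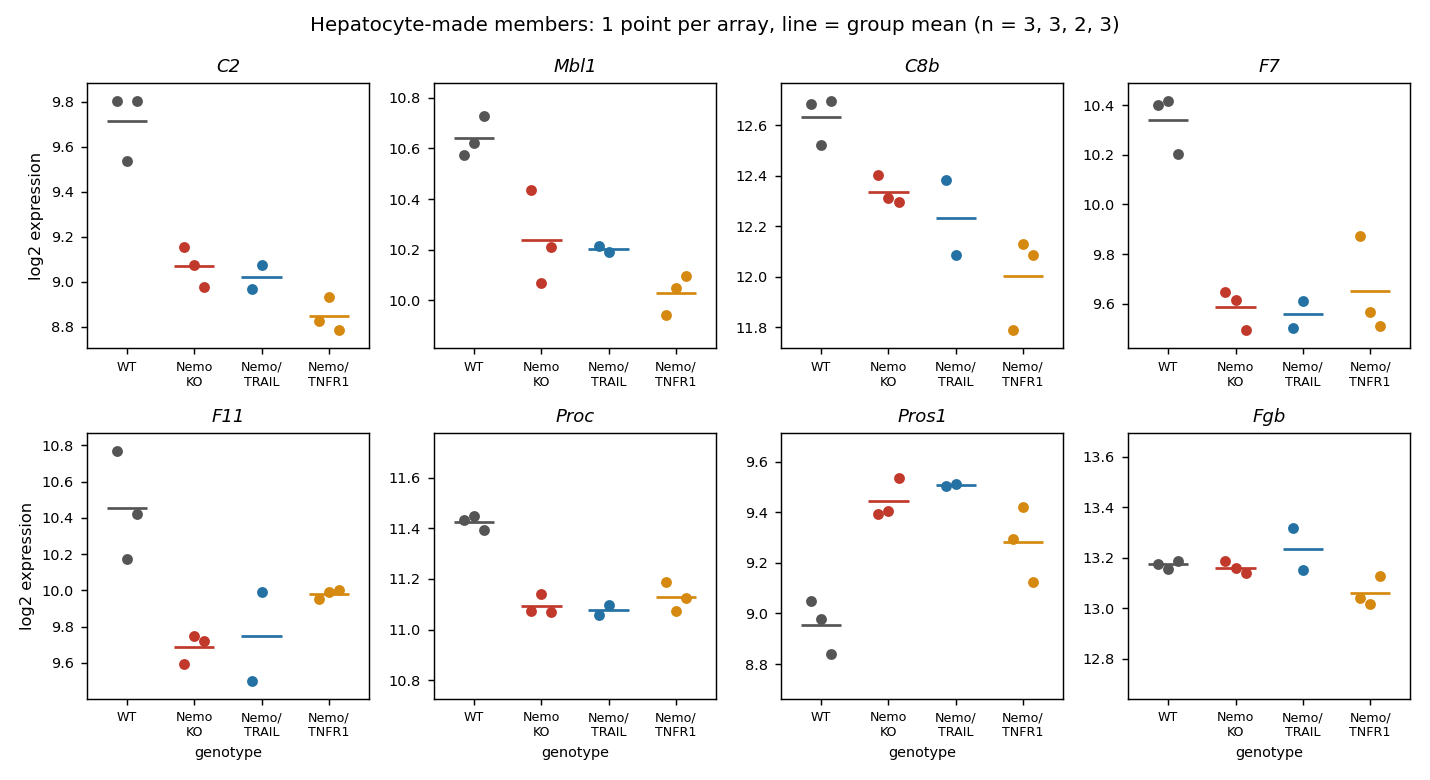
Each point is the log2 level (y axis, scaled separately per panel and not from 0) of a hepatocyte-made gene on 1 array, by genotype (x axis), with a line at the group mean (3 arrays per group, 2 for Nemo/TRAIL dKO). C2, Mbl1, C8b, F7, F11 and Proc lie below WT on every Nemo-deficient array, Pros1 lies above WT, and the fibrinogen gene Fgb stays between 13.02 and 13.32.

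Of the 2 genes made mainly by other cells, Vwf rose in Nemo KO and C7 passed in no group. Vwf, the von Willebrand factor of endothelial cells and platelets that tethers platelets to vessel walls, was at 7.09, 7.12 and 7.32 in WT, 7.41, 7.59 and 7.64 in Nemo KO, 7.29 and 7.54 for Nemo/TRAIL dKO, and 7.48, 7.44 and 7.35 in Nemo/TNFR1 dKO. Nemo KO and Nemo/TNFR1 dKO lay above WT and Nemo/TRAIL dKO overlapped it. Vwf rose by 0.37 ± 0.10 in Nemo KO (limma adjusted p = 0.0454), and differed by 0.24 ± 0.11 and 0.25 ± 0.10 in the double knockouts. The call was lost after quantile normalization, with arrays centred on their medians, and without WT replicate 1 or 2, Nemo KO replicate 2 or 3, or any Nemo/TNFR1 dKO array. Of 13 endothelial markers 1 rose in Nemo KO (7.69%, against 6.08% of all probe sets), a share near the background. The mean of the 13 lay between 8.90 and 8.98 in WT and 8.97 and 8.99 in Nemo KO. C7, a pore component made by stromal cells, ranged from 6.71 to 7.99 over the 3 WT arrays, was highest on WT replicate 3, and did not pass in any comparison.

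No gene of the 42 passed in the 3 comparisons among the Nemo-deficient groups by limma. Few probe sets of the whole array passed either: 0.00281% rose and 0.00281% fell in Nemo/TRAIL dKO against Nemo KO, 0.00281% rose and 0.0309% fell in Nemo/TNFR1 dKO against Nemo KO, and 0.00562% rose and 0.0422% fell in Nemo/TNFR1 dKO against Nemo/TRAIL dKO. At an unadjusted p under 0.05 there were 2 of the 42 genes in the first comparison (4.76%, against 4.04% of all probe sets), a share near the background. There were 8 in the second (19.0%, against 6.86%) and 5 in the third (11.9%, against 5.03%). The 95% confidence interval lay within 0.5 of 0 on the log2 scale for 39, 36 and 33 of the 42 genes in these 3 comparisons, and reached beyond 0.5 for the rest. A p that misses the threshold does not show that the groups are alike.

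Of the 8 genes at an unadjusted p under 0.05 in Nemo/TNFR1 dKO against Nemo KO, 7 were hepatocyte-made complement genes, all with lower values in the double knockout. They are 7 of 16 (43.8%), against 6.86% of all probe sets at that p, and none passed after adjustment. C6 differed by -0.67 ± 0.19 (95% interval -1.10 to -0.24, adjusted p = 0.515), C8b by -0.33 ± 0.11 (adjusted p = 0.592), C2 by -0.22 ± 0.09 (adjusted p = 0.707) and C1s1 by -0.20 ± 0.06 (adjusted p = 0.504) by limma. The other 3 were Cfi, C9 and Hc. The median over the 16 genes was -0.18, against 0.01 over all probe sets, and the median over the 16 coagulation genes was 0.00. Each array's mean over the 16 complement genes lay between 11.49 and 11.56 in WT, 11.41 and 11.47 in Nemo KO, 11.38 and 11.39 for Nemo/TRAIL dKO, and 11.18 and 11.33 in Nemo/TNFR1 dKO. C6 was at 10.66, 11.45 and 11.39 in Nemo/TNFR1 dKO and 11.92, 11.81 and 11.78 in Nemo KO, so that replicate 1 of the double knockout lay far below its group. Each double knockout group carries its own code in the array names, and WT and Nemo KO share another; what the code means is not given, and if it marks a batch, batch and genotype cannot be told apart.

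Of the wider pathway, 63 of 70 listed regulators, receptors, inhibitors and cofactors were measured. In Nemo KO 14 rose (22.2%, against 6.08% of all probe sets) and 8 fell (12.7%, against 3.21%). In Nemo/TRAIL dKO 13 rose (20.6%, against 4.91%) and 6 fell (9.52%, against 2.64%). In Nemo/TNFR1 dKO 13 rose (20.6%, against 5.83%) and 7 fell (11.1%, against 3.35%). The median over the 63 was -0.02, -0.02 and -0.04, close to that of all probe sets. None of the 63 passed among the Nemo-deficient groups by limma. At an unadjusted p under 0.05 there were 1 in Nemo/TRAIL dKO against Nemo KO (1.59%, against 4.04% of all probe sets), 6 in Nemo/TNFR1 dKO against Nemo KO (9.52%, against 6.86%) and 4 between the double knockouts (6.35%, against 5.03%).

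The wider complement genes that rose were receptors of myeloid cells together with clusterin. Itgb2, the shared beta chain of complement receptors 3 and 4, rose by 1.33 ± 0.10, 1.29 ± 0.11 and 1.26 ± 0.10 (limma adjusted p = 0.000263, 0.000542 and 0.000222). Itgax, the alpha chain of complement receptor 4, rose by 1.42 ± 0.22, 1.29 ± 0.25 and 1.07 ± 0.22. Cd93, once described as a C1q receptor, rose by 1.18 ± 0.16, 0.91 ± 0.17 and 0.96 ± 0.16. Vsig4, the Kupffer cell receptor for C3b and one of the 20 macrophage markers above, rose by 0.51 ± 0.11 in both Nemo KO and Nemo/TNFR1 dKO and differed by 0.28 ± 0.12 in Nemo/TRAIL dKO; both calls were lost without WT replicate 3, and the first also without Nemo KO replicate 2 or 3. Itgam, the alpha chain of complement receptor 3 and also among those 20, did not pass (0.41, 0.32 and 0.32).

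Some inhibitors fell. Susd4, a membrane complement inhibitor, fell by 1.07 in Nemo KO (SE 0.25, limma adjusted p = 0.0252) and by 1.03 in Nemo/TNFR1 dKO (adjusted p = 0.0297, SE 0.25), and differed by -0.39 ± 0.27 in Nemo/TRAIL dKO; the difference between the double knockouts did not pass. Cd59b and Cd59a, which block assembly of the C9 pore, fell by 0.89 and 0.50 in Nemo KO (adjusted p = 0.0253 and 0.0409), and neither passed in the double knockouts. Cd59a and Cd59b are related genes, and whether their probe sets share signal was not tested, so the split between them is uncertain. Cfhr3, a factor H relative, differed by -0.54 ± 0.15 in Nemo KO (adjusted p = 0.0538), and fell by 0.73 in Nemo/TRAIL dKO (adjusted p = 0.0285, SE 0.17) and by 0.62 in Nemo/TNFR1 dKO (SE 0.15, adjusted p = 0.0327). Among these calls, each was lost without 3 or more of the arrays when those were left out 1 at a time.

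Of the 33 wider coagulation genes measured, 9, 9 and 8 rose against WT (27.3%, 27.3% and 24.2%, against 6.08%, 4.91% and 5.83% of all probe sets). Anxa2, which with S100a10 gathers plasminogen and its activator at the cell surface, rose by 2.48 ± 0.25, 2.57 ± 0.28 and 2.19 ± 0.25 (limma adjusted p = 0.000713, 0.0013 and 0.00116). Thbs1, thrombospondin of platelets and stromal cells, rose by 1.94 ± 0.30, 2.17 ± 0.34 and 2.07 ± 0.30, and Plat, tissue plasminogen activator, by 1.64 ± 0.26, 1.66 ± 0.29 and 1.65 ± 0.26. Thbd, thrombomodulin, which turns thrombin toward activating protein C, rose by 1.14 ± 0.16, 1.27 ± 0.18 and 1.33 ± 0.16. Tgm2, a tissue cross-linking enzyme related to factor XIII, rose in Nemo KO by 1.35 ± 0.24 and in Nemo/TRAIL dKO by 1.17 ± 0.26, but differed by 0.84 ± 0.24 in Nemo/TNFR1 dKO (adjusted p = 0.0588). Gas6, the relative of protein S, rose by 0.84 ± 0.11, 0.95 ± 0.13 and 0.75 ± 0.11. S100a10 rose by 0.64 ± 0.07, 0.74 ± 0.07 and 0.60 ± 0.07, and F2r, a thrombin receptor, by 0.75 ± 0.12, 0.62 ± 0.13 and 0.69 ± 0.12. The 13 stellate cell and fibroblast markers had a median difference of 1.15, 0.997 and 1.13, and their part in these rises was not tested. Without Nemo/TRAIL dKO replicate 1 the calls of Plat, Thbs1, Tgm2, F2r, Itgax and Cd93 in that group were lost; those of F2r were also lost without WT replicate 2 or Nemo/TRAIL dKO replicate 2, those of Tgm2 without any WT array, and that of Itgax in Nemo/TNFR1 dKO without WT replicate 2 or Nemo/TNFR1 dKO replicate 2 or 3.

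A further look, chosen after the values were seen, took the proteins that need vitamin K-dependent carboxylation. Among those of the listed genes, F2, F7, F10 and Proc fell in Nemo KO, as did Proz, a factor X regulator (-0.35), while F9 did not pass (-0.14) and Pros1 and Gas6 rose. The enzymes of the modification itself, Ggcx, the carboxylase, and Vkorc1, the vitamin K reductase, fell by 0.35 and 0.34 in Nemo KO (limma adjusted p = 0.0301 and 0.0488). Ggcx fell in both double knockouts (by 0.41 and 0.42), and Vkorc1 fell by 0.38 in Nemo/TNFR1 dKO and missed the threshold in Nemo/TRAIL dKO (adjusted p = 0.0541). The Proz, Ggcx and Vkorc1 calls in Nemo KO were each lost without WT replicate 1 or 2 or Nemo KO replicate 2 or 3, and the Vkorc1 call also after quantile normalization.

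**Figure D4:**
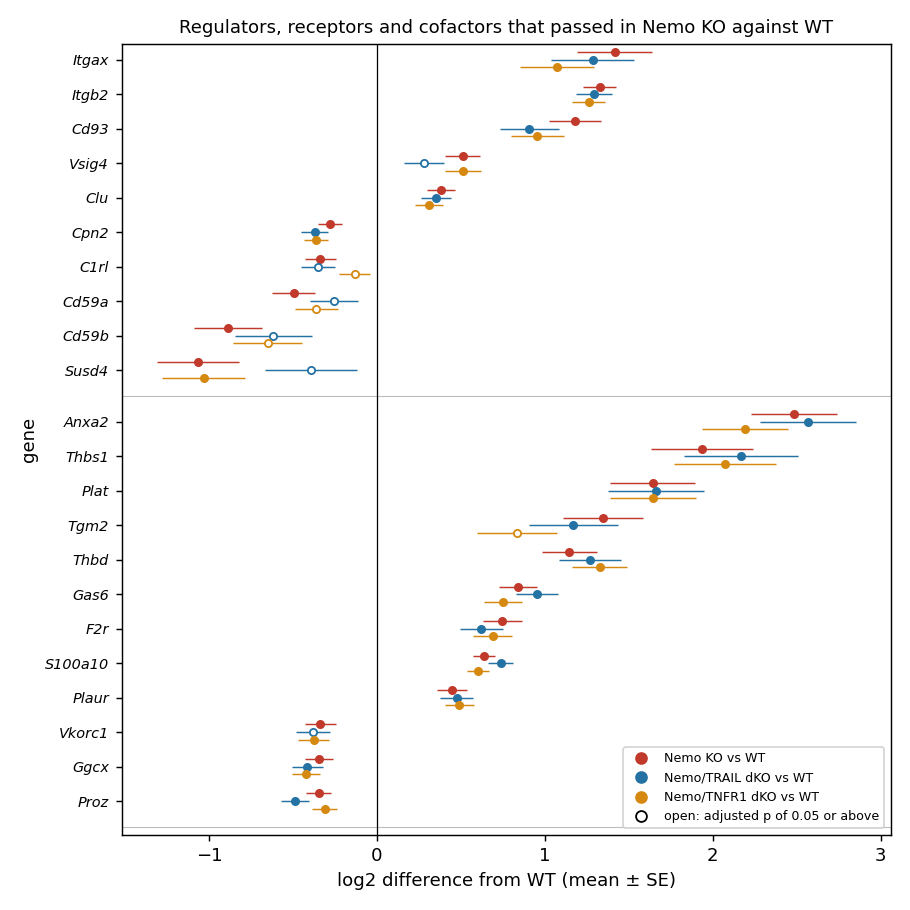
The x axis is the log2 difference from WT for the 22 wider pathway genes (y axis) that passed in Nemo KO, with points for the mean, bars for the SE of the limma fit, and filled points where the adjusted p was under 0.05. Complement genes form the upper block and coagulation genes the lower; Anxa2 and Thbs1 lie farthest to the right in all 3 groups, and in Nemo KO Susd4 and Cd59b lie farthest to the left.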

How the data were processed

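Liver RNA in 11 samples was labelled and hybridised to Affymetrix MoGene 1.0 ST arrays (WT and Nemo KO with 3 each, Nemo/TNFR1 dKO with 3 and Nemo/TRAIL dKO with 2). The values are log2 expression per probe set as deposited by the authors, summarised with RMA per the submitters' processing notes, with the version not given in the sources used here. RMA as usually run quantile-normalizes the arrays, so differences are then relative to all probe sets. Genes were named through the platform annotation, in which 21789 probe sets had 1 symbol. In R 4.3.3, limma 3.58.1 fitted 1 mean per group over all 11 arrays, moderated the variances, and gave 6 two-sided comparisons, each Benjamini-Hochberg adjusted over 35556 probe sets, with 7 residual degrees of freedom. The fit was tested on simulated data. The genes, role groups, marker lists and wider pathway lists were chosen with earlier results of these data known, so no list is independent evidence.

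Values per array are printed for genes that passed in at least 1 comparison with a log2 difference of 0.5 or more, for the gene of each role group with the largest difference in Nemo KO, and for Fgb and C6, which were chosen after their values were seen. Wider pathway genes are given by the same 0.5 rule, at most 8 per list and comparison, and others named were chosen after their values were seen. Alternatives were a stricter threshold, other scalings, filters and variance models, array weights, the replicate number as a block, a fit to only the groups compared and each array left out. No pairing was assumed, because the labels give no shared animal, litter or day.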

Additional observations from a re-analysis of the deposited data

Results flagged for a closer look

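C4bp, an inhibitor of the classical and lectin pathways made by hepatocytes, lay on opposite sides of Nemo KO in the double knockouts: both Nemo/TRAIL dKO arrays were higher than all Nemo KO arrays and all Nemo/TNFR1 dKO arrays were lower. The difference between the double knockouts, Nemo/TNFR1 dKO minus Nemo/TRAIL dKO, was -0.22 ± 0.07 on the log2 scale (SE, limma adjusted p = 0.885), so it did not pass.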

How the results depend on the processing

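No called value changed sign under any alternative that was run (0 of 100), while 206 of 530 values that had not passed changed sign in at least 1. At an adjusted p under 0.01, 9 of the 42 genes passed against WT in Nemo KO, and for Nemo/TRAIL dKO 7 passed, where 15 and 12 passed at 0.05. Leaving out each array in turn gave 10 to 16 genes in Nemo KO, 10 to 12 in Nemo/TNFR1 dKO and 5 to 14 in Nemo/TRAIL dKO, and the 5 came without Nemo/TRAIL dKO replicate 1. Across every array left out and the 8 other settings, 9 of 15, 5 of 12 and 9 of 12 calls were kept in Nemo KO, then Nemo/TRAIL dKO, then Nemo/TNFR1 dKO. The comparisons among Nemo-deficient groups gave 0 genes in all of these. With the replicate number as a replicate block, 11, 10 and 10 genes passed in the same order. The 15 pairs of arrays that share a number had correlations of deviations between -0.117 and 0.044, so the numbers do not pair the samples. With only 2 Nemo/TRAIL dKO arrays, leaving out 1 assumes that the other varies like the remaining groups.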
